A study of Mus musculus with 12 samples.

Results

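Integrins, tetraspanins, cadherins, protocadherins and junctional adhesion molecules are the surface proteins by which a cell holds on to matrix and to other cells. In hematopoietic stem cells (HSCs) sorted from mouse bone marrow, 121 of the 14143 genes with a value belonged to these families. The members were taken by name and not by level. They are genes whose symbol begins with Itga, Itgb, Tspan, Cdh, Pcdh, Jam or Esam, together with the tetraspanins Cd9, Cd53, Cd63, Cd81, Cd82 and Cd151. Itga2b, Itgam, Itgb2, Itgb2l and Itgb3, which are platelet and leukocyte integrin chains, and the integrin-binding proteins named Itgb1bp or Itgb3bp were left out. The set held 15 integrin alpha chains, 6 integrin beta chains, 23 tetraspanins, 17 cadherins, 2 cadherin-related genes, 55 protocadherins and 3 members of the junctional adhesion molecule (JAM) family.

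Expression was measured by RNA-seq in 4 groups of 3 libraries, all from female C57BL6J mice with no engineered allele or treatment named in the labels. Old mice were 18 months of age, and young mice were labelled 8 to 10 weeks, where the protocol says 8 to 12 weeks. The sorted cells lacked lineage markers, CD48 and CD135, carried Sca-1 and c-kit, and were divided by CD150 level, with CD150low cells as the Ly-HSCs, which are lymphoid-biased, and CD150high cells as the My-HSCs, which are myeloid-biased. Each library of a group stands for a separate group of mice, so the spread within a group is that between pools of animals. Old Ly-HSC and old My-HSC libraries of the same number were correlated, as given below, and the main model does not use this correlation. Old mice came from a colony of the National Institute on Aging and young mice from elsewhere, so age and source of the animals cannot be told apart. The comparison of old with young libraries asks how each stem cell fraction differs with age, which is the subject of the series, and the comparison of My-HSCs with Ly-HSCs asks what separates the fractions.

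Integrins are pairs of an alpha and a beta chain that bind matrix proteins or receptors on neighbouring cells and, once activated from inside the cell, link them to actin. In bone marrow the pairs of Itgb1 with Itga4 or Itga5 bind VCAM-1 and fibronectin and take part in holding HSCs in their niche and in their homing after transplantation. Tetraspanins span the membrane several times and gather integrins and other receptors into membrane domains. Cadherins and protocadherins bind cells to cells through calcium-dependent ectodomains, and JAM proteins are immunoglobulin-type receptors of endothelial, platelet and stem cell contacts.

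Values are FPKM, fragments per kilobase of a gene's transcript, scaled by the library's mapped fragments, as deposited. The unit is per length, so levels are set side by side between genes. Such comparisons are approximate, since the annotation and the counting of multi-mapped reads were not given. Slamf1, which encodes CD150, ran from 1.39 to 8.33 FPKM in the Ly-HSC libraries and from 15.01 to 35.3 FPKM in the My-HSC libraries, so the sort labels and this transcript go together. Of 15 HSC markers 13 had a value, and they summed to 508.8 to 625.1 (young) and 438.8 to 493.7 FPKM (old) in Ly-HSCs and to 574.2 to 624.4 (young) and 560.0 to 621.0 FPKM (old) in My-HSCs. The 3 old Ly-HSC libraries thus had the lowest sums, and the part of this in the age differences of Ly-HSCs was not tested. This marker list holds Cd48 and Flt3 (CD135), whose proteins the sort selected against. It also holds Cd34, at 33.97 to 61.2 FPKM in Ly-HSCs and 4.32 to 20.65 FPKM in My-HSCs. The sum is therefore not a measure of HSC content. The share of all genes listed at exactly 0 was 25.0% to 34.1% (young) and 13.3% to 22.3% (old) in Ly-HSCs, and 19.3% to 26.1% (young) and 12.1% to 18.2% (old) in My-HSCs. Within the set, the number of members listed at 0 was 77, 63 and 73 of 121 (young) and 57, 27 and 36 (old) in Ly-HSCs, and 59, 57 and 56 (young) and 43, 25 and 37 (old) in My-HSCs. Zeros thus moved with age and with subset, and their part in the differences below was not tested beyond a fit that holds the share of zeros constant. Libraries of 1 group correlated across all genes at 0.706 to 0.789 in young Ly-HSCs and at 0.875 to 0.965 in old My-HSCs. On the log2 scale the median member had an SD of 0.85 over the young Ly-HSC libraries and of 0.39 over the old My-HSC libraries, against 0.68 and 0.28 for all genes.

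Promoter sequence is shown for 3 members with unlike patterns. They are Tspan17, a low member and the 1 that narrowly passed the test with age, Itga4, which was lowest in old My-HSCs, and Cd81, which was high in all groups. Each line gives the 220 bases from 250 to 31 bases before the RefSeq start of the gene on GRCm38.p6, 5′ to 3′ on the plus strand, which is the sense strand of all 3 genes. Capitals mark GGGCGG, the GC box bound by Sp-family factors, which was searched on both strands.
Tspan17, chr13:54789155-54789374: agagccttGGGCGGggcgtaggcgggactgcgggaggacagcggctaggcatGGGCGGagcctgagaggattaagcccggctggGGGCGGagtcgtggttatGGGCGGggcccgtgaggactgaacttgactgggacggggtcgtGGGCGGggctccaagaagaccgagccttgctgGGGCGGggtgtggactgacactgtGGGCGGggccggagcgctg
Itga4, chr2:79255176-79255395: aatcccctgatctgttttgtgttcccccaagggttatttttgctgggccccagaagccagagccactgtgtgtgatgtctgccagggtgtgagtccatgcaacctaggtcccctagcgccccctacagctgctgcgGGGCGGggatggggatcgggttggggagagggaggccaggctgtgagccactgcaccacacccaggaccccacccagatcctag
Cd81, chr7:143052500-143052719: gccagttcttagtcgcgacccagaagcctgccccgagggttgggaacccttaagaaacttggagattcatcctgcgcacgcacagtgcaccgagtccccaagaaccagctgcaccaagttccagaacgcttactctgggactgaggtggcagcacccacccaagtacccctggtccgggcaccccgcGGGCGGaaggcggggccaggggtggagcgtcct
The Tspan17 window held 7 GC boxes and was 70.5% G and C, and 0.198% of 32851 RefSeq windows of the same length held as many. The Itga4 and Cd81 windows held 1 each, and 28.5% of all windows held at least 1. The ETS-type motif CCGGAA was searched on both strands, was in none of the 3 windows and was held by 9.47% of all windows. The same search for the GATA-type motif GATAAG found none in the 3 and a share of 5.89% overall. For the TATA box, TATAAA, it found none in the 3 and a share of 9.95% overall. These matches are a description of the letters in the window. RefSeq windows were matched by symbol to 54 of the 121 members.

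Of the 121 members, 5 were listed at 0 in all 12 libraries (Itga8, Tspan7, Cdh1, Cdh4 and Pcdh12), 43, these 5 included, never reached 1 FPKM, and 18 had a mean of at least 10 FPKM over the libraries. Tests used the 63 members that reached 1 FPKM in at least 3 libraries, 10 integrin alpha chains, 3 beta chains, 18 tetraspanins, 2 cadherins, 1 cadherin-related gene, 26 protocadherins and all 3 JAM genes. The other 58 fell under this limit and are described by their values. A gene was called when its adjusted p from limma, corrected over all 10900 genes tested, was under 0.05. Fold changes are on the log2(FPKM + 1) scale, which understates differences of low genes, and an error after ± is a standard error.

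**Figure D1:**
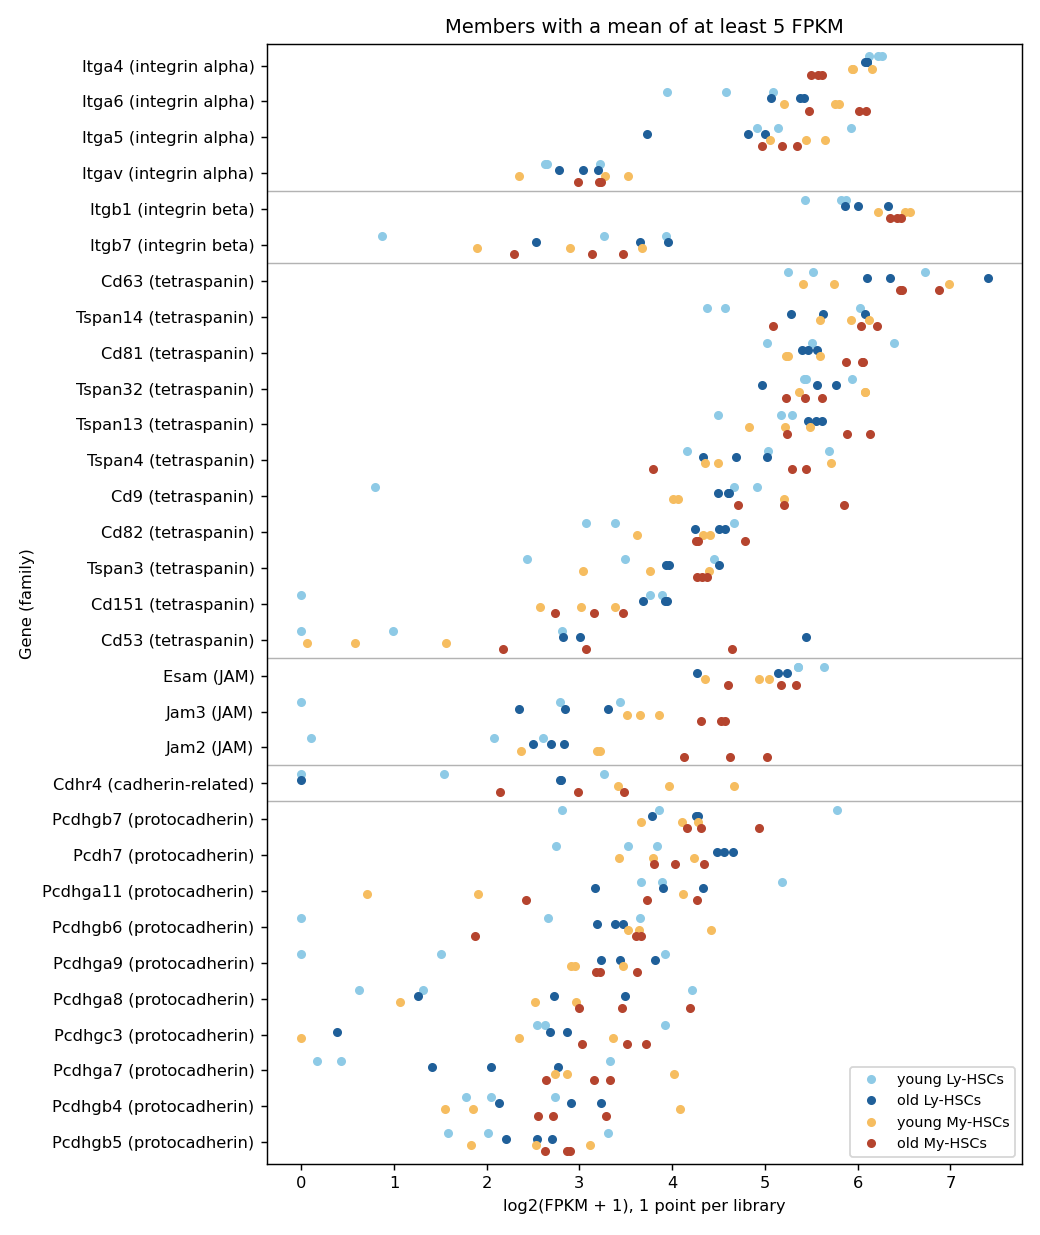
Levels of the members with a mean of at least 5 FPKM, as log2(FPKM + 1) on the horizontal axis, 1 point per library, coloured by group and ordered by family and level. Itga4, Itgb1 and Cd63 lie at the right, the JAM genes Jam2 and Jam3 lie farthest right in old My-HSCs, and the protocadherins Pcdhgb6 and Pcdhga9 have young Ly-HSC library 1 at 0.

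The set as a whole gave few calls. Across both subsets, Tspan17 was the 1 member called with age, where 0.844% of all genes were called (92 of 10900). It entered the test through old libraries only, and the call held in 3 of the 12 fits that leave out 1 library. None of the 63 was called with age in Ly-HSCs alone or in My-HSCs alone, where 0.349% and 0.211% of all genes were, by limma's adjusted p. At an unadjusted p under 0.05 there were 10 members with age in Ly-HSCs (15.9%, beside 13.3% of all genes). In My-HSCs there were 13 (20.6%, beside 7.21%), and over both subsets 14 (22.2%, beside 14.7%). Tspan17 and Pcdhb19, which entered the test through old libraries only, are in each of these counts. Such genes were 7.94% of tested members and 1.35% of all genes tested, so the shares with age are not a like comparison. Between My-HSCs and Ly-HSCs no member was called in young mice (0.119% of all genes), in old mice (0.0275%) or over both ages (0.413%). Members at an unadjusted p under 0.05 numbered 15 in young mice (23.8%, beside 13.8% of all genes). They numbered 4 in old mice (6.35%, beside 4.03%) and 10 over both ages (15.9%, beside 11.2%). With the replicate number as a block within each age the genes called were 0 in young mice, 0 in old mice and 17 over both ages, in place of 13, 3 and 45. No gene of the table was called for a difference of the age effect between subsets (0%), and 2 members, Pcdhgc4 and Tspan6, were among the 616 genes (5.65%) with an unadjusted p under 0.05. A p above the threshold does not show that a member kept its level, and the intervals given below show what sizes remain possible.

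In direction, 52 of the 63 tested members were higher with age over both subsets, with a median log2 difference of 0.39, beside 62.7% of all genes and a median of 0.13. Scaling changed this picture: with quantile normalization 36 of 63 were higher (median 0.10, all genes -0.02), and with the share of zeros held constant 30 of 63 (median -0.03, all genes -0.05). The median of the members lay above that of all genes by 0.26 as deposited, by 0.12 with quantile normalization and by 0.01 with the share of zeros held constant. Of the 63, 5 (Tspan12, Tspan17, Pcdhb19, Pcdhb20 and Pcdhb22, 7.94%) reached 1 FPKM in old libraries only and so entered the test through them, against 1.35% of all genes tested, and none entered through young libraries only. Between subsets 44 of 63 were higher in My-HSCs over both ages, with a median of 0.20, beside 58.1% of all genes and a median of 0.08. Here too the split moved with scaling, to 34 of 63 with quantile normalization (median 0.033, all genes 0.001) and to 33 of 63 with the share of zeros held constant (median 0.075, all genes 0.009).

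**Figure D2:**
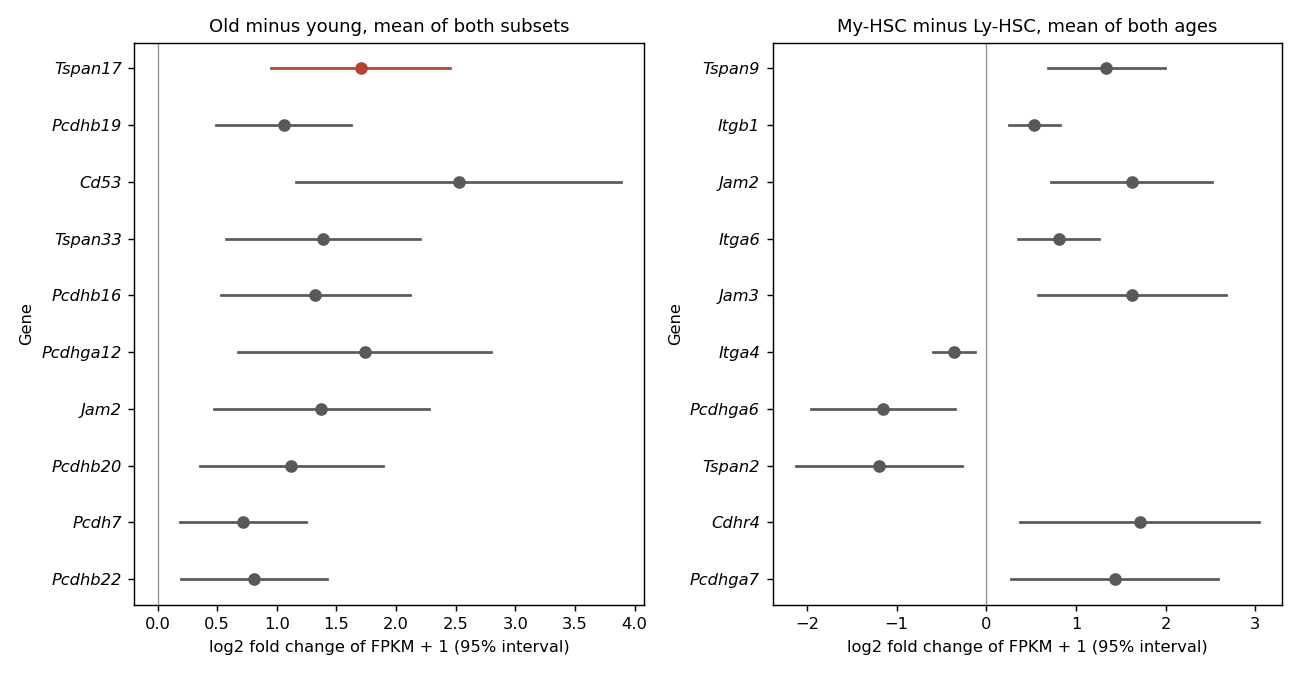
Log2 fold changes of FPKM + 1 with 95% intervals from limma for the 10 members with the smallest p with age (left, old minus young over both subsets) and between subsets (right, My-HSC minus Ly-HSC over both ages). Tspan17, in red, is the member with an adjusted p under 0.05, at 1.70, and the intervals of Tspan9 and Itgb1 lie above 0 without a call. On the left, Tspan17, Pcdhb19, Pcdhb20 and Pcdhb22 entered the test through old libraries only.

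Itga4, Itga5 and Itga6 made up most integrin alpha chain transcript, 73.6% to 91.0% of the summed alpha chain FPKM of a library (median 87.3%). Itga4 (alpha-4), the chain that binds VCAM-1, had the highest mean of them over the 12 libraries, at 26.5% to 51.3% of a library's sum, while Itga6 was higher than Itga4 in old My-HSC libraries 2 and 3. Libraries are given in the order 1, 2 and 3 throughout. It stood at 73.5, 75.6 and 68.5 (young) and 67.5, 67.6 and 66.8 FPKM (old) in Ly-HSCs and 60.6, 70.1 and 60.2 (young) and 47.9, 44.2 and 46.6 FPKM (old) in My-HSCs. All 3 old My-HSC libraries thus lay under every other library, and the old Ly-HSC libraries lay just under the young ones. The log2 difference with age was -0.45 ± 0.15 in My-HSCs (adjusted p = 0.481), and that of old My-HSCs from old Ly-HSCs was -0.53 ± 0.15 (adjusted p = 0.564). Neither passed the test over all genes. Itga4 was 1 of 6 tested members whose old and young libraries did not overlap, in the same direction, in both subsets (9.52%, beside 3.35% of all genes). It was the only one of the 6 that was lower in old libraries. Of the 6, Tspan17, Pcdhb19 and Pcdhb22 entered the test through old libraries only. Such genes were 7.94% of tested members and 1.35% of all genes tested, so the 2 shares are not a like comparison.

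Itga6 (alpha-6), a laminin-binding chain, stood at 33.0, 22.9 and 14.4 (young) and 32.5, 40.7 and 42.0 FPKM (old) in Ly-HSCs and 52.9, 36.0 and 54.5 (young) and 43.3, 63.7 and 67.1 FPKM (old) in My-HSCs. At each age every My-HSC library lay above every Ly-HSC library. The log2 difference between subsets was 1.05 ± 0.30 in young mice (adjusted p = 0.153) and 0.81 ± 0.21 over both ages (95% interval 0.36 to 1.26, adjusted p = 0.126, and 0.0415 without young Ly-HSC library 1). With age it was 0.75 ± 0.30 in Ly-HSCs (adjusted p = 0.305), where the groups overlapped.

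Itga5 (alpha-5), the fibronectin receptor chain, gave 59.9, 29.2 and 34.2 FPKM in young and 12.2, 30.9 and 27.1 in old Ly-HSCs, against 42.4, 32.2 and 49.2 and 35.3, 39.6 and 30.3 in young and old My-HSCs. The lowest value was that of old Ly-HSC library 1, and the 2 ages overlapped in both subsets. Its difference with age in Ly-HSCs was -0.81 ± 0.35 (adjusted p = 0.341). Itgav, the alpha chain of vitronectin receptors, lay between 4.10 and 10.5 FPKM in all libraries, with a difference of 0.13 ± 0.30 with age that turned to -0.08 with quantile normalization.

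The remaining alpha chains were low and uneven. Itgal, the alpha chain of the leukocyte integrin LFA-1, stood at 0, 2.09 and 5.02 (young) and 3.49, 3.89 and 3.47 FPKM (old) in Ly-HSCs and 0.963, 1.49 and 0.316 (young) and 14.9, 1.25 and 1.47 FPKM (old) in My-HSCs. Its highest value was that of old My-HSC library 1. Itga2, a collagen receptor chain, reached 10.2 FPKM in young Ly-HSC library 2 and was listed at 0 in young Ly-HSC libraries 1 and 3. Itga9, Itga3, Itga10 and Itgad also passed the limit for testing, and their highest single values were 8.69, 6.09, 2.40 and 4.11 FPKM. Among the 5 untested alpha chains Itgae peaked at 7.11 FPKM in young Ly-HSC library 1, Itga1 at 3.76 and Itgax at 1.65 in old My-HSC library 1, and Itga8 was listed at 0 throughout.

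On the beta side, Itgb1 (beta-1), the shared partner of Itga4, Itga5 and Itga6, held 72.1% to 96.4% of the summed beta chain FPKM (median 89.0%). It stood at 42.3, 55.4 and 57.5 (young) and 63.3, 79.3 and 57.4 FPKM (old) in Ly-HSCs and 73.5, 93.5 and 90.5 (young) and 84.9, 87.8 and 80.7 FPKM (old) in My-HSCs. My-HSC libraries lay above the Ly-HSC libraries of the same age, without overlap, at both ages. The log2 difference between subsets was 0.72 ± 0.19 in young mice (adjusted p = 0.126) and 0.54 ± 0.13 over both ages (95% interval 0.25 to 0.82, adjusted p = 0.112), which did not pass. With age it was 0.17 ± 0.13 over both subsets (adjusted p = 0.597), and -0.11 with the share of zeros held constant.

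Itgb7, which pairs with Itga4 in a receptor for mucosal vessels, ranged from 0.833 FPKM (library 1 of young Ly-HSCs) to 14.5 FPKM (library 2 of old Ly-HSCs), with all groups overlapping. Itgb5, a partner of Itgav, was listed at 0 in 4 of the 12 libraries and peaked at 4.37 FPKM in young Ly-HSC library 2. The other beta chains, Itgb4, Itgb6 and Itgb8, fell under the limit, Itgb4 with a highest value of 3.87 FPKM in young Ly-HSC library 1.

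Integrin activators and adaptors were taken as a list of 31 genes, of which 24 had a value and 22 were tested. Talin-1, integrin-linked kinase and zyxin are among the genes not analysed here. None of the 22 was called in any comparison, with 14 higher and 8 lower with age over both subsets (median 0.12) and 14 higher and 8 lower in My-HSCs (median 0.15). Fermt3, the kindlin of blood cells that switches integrins on, lay above every member, at 192.3 to 270.8 FPKM. Vcl, vinculin, which ties adhesion sites to actin, stood at 14.5, 24.9 and 9.10 FPKM in young and 63.1, 34.7 and 21.2 in old Ly-HSCs, and at 21.9, 41.8 and 42.3 and 54.6, 48.0 and 45.4 in young and old My-HSCs. Its difference with age over both subsets was 0.87 ± 0.29 (adjusted p = 0.190).

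Of the 5 integrin chains left out of the set by name, Itgb3, the beta chain of the platelet fibrinogen receptor, was called. It stood at 11.8, 2.37 and 7.12 (young) and 15.7, 27.2 and 13.5 FPKM (old) in Ly-HSCs and 11.7, 9.64 and 23.4 (young) and 41.7, 67.6 and 58.5 FPKM (old) in My-HSCs, and rose with age by 1.67 ± 0.34 on the log2 scale over both subsets (adjusted p = 0.0384). The ages did not overlap within either subset, while old Ly-HSC values overlapped those of young My-HSCs. Itga2b, the alpha chain of that receptor, was not called. It stood at 27.2, 36.1 and 37.2 FPKM in young and 18.55, 25.7 and 23.9 in old My-HSCs, lower without overlap. In Ly-HSCs the ages overlapped for Itga2b. With age in My-HSCs 4 of the 5 chains were higher and 1 lower. Itgb2, Itgb2l and Itgam peaked within My-HSCs in old library 1, at 67.0, 29.7 and 124.5 FPKM. Old My-HSC libraries 2 and 3 gave 14.1 and 18.3 FPKM for Itgb2 and 0.195 and 0.572 for Itgb2l. Young My-HSC values reached 22.4 FPKM for Itgb2 and 0.358 for Itgb2l. Itgam stayed above its young My-HSC values there, at 23.5 and 18.0 FPKM against at most 6.69. Among 11 tested integrin ligands (25 listed, 21 with a value) none was called, with 7 higher and 4 lower with age (median 0.16).

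Jam2 and Jam3 had higher values in My-HSCs than in Ly-HSCs, short of a call. Jam2, an adhesion receptor that binds Jam3 and the alpha-4 beta-1 integrin, stood at 5.07, 0.0783 and 3.21 (young) and 5.48, 4.67 and 6.15 FPKM (old) in Ly-HSCs and 8.30, 4.16 and 8.11 (young) and 16.4, 31.4 and 23.6 FPKM (old) in My-HSCs. The 3 old My-HSC libraries were above all 9 others. The log2 difference between subsets was 1.91 ± 0.59 in old mice (adjusted p = 0.682) and 1.62 ± 0.42 over both ages (adjusted p = 0.124, and 0.0415 without young Ly-HSC library 1), and with age it was 1.66 ± 0.59 in My-HSCs (adjusted p = 0.504). When each group was given its own weight for spread, the difference in old mice passed, with an adjusted p of 0.0366.

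Jam3, the partner of Jam2, stood at 9.81, 5.90 and 0 (young) and 4.08, 6.18 and 8.92 FPKM (old) in Ly-HSCs and 13.5, 10.4 and 11.6 (young) and 22.8, 22.1 and 18.8 FPKM (old) in My-HSCs. Every My-HSC library lay above every Ly-HSC library over both ages. This held for 2 of the 63 tested members (Jam3 and Tspan9) and for 87 of the 10900 genes tested. Counted in either direction, the shares were 3.17% of members and 1.17% of all genes. The log2 difference of Jam3 was 1.62 ± 0.49 over both ages, a 3.07-fold difference of FPKM + 1 (95% interval 0.57 to 2.67, adjusted p = 0.194). It was of similar size in young (1.60 ± 0.69) and old mice (1.64 ± 0.69). Esam, the endothelial cell-selective adhesion molecule that also marks HSCs, was the highest of the family and showed no such split. It stood at 39.9, 40.1 and 48.9 (young) and 18.2, 34.3 and 36.7 FPKM (old) in Ly-HSCs and 19.5, 29.5 and 31.9 (young) and 23.3, 39.3 and 34.99 FPKM (old) in My-HSCs, with a difference between subsets of -0.26 ± 0.22 (95% interval -0.73 to 0.20). Its young My-HSC libraries all lay under its young Ly-HSC libraries.

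Summed endothelial markers did not overlap between subsets in old mice, where My-HSCs had the higher sums, and overlapped in young mice. The 10 endothelial markers all had a value, 4 of them passed the limit for testing, and their summed level was 0 to 5.17 (young) and 0.491 to 4.002 FPKM (old) in Ly-HSCs and 3.70 to 16.2 (young) and 16.1 to 24.5 FPKM (old) in My-HSCs. None of the 4 was called between subsets. Kdr, the VEGF receptor of endothelium, stood at 1.06 to 9.91 FPKM in the My-HSC libraries and at 0 to 2.155 FPKM in the Ly-HSC libraries, and Sox18, an endothelial transcription factor, at 0.648 to 6.27 and 0 to 1.42 FPKM. Cldn5, a claudin of vessel and other junctions, stood at 12.6, 14.9 and 4.94 FPKM in the old My-HSC libraries. Flt4, Stab2 and Ptprb peaked at 1.64, 2.23 and 1.465 FPKM, each in an old My-HSC library. Plvap, Nos3, Lyve1 and Stab1 were at 0 or under 1 FPKM in all My-HSC libraries, and Plvap peaked at 3.67 FPKM in young Ly-HSC library 3. Nos3, Lyve1 and Cdh5 (VE-cadherin), the defining cadherin of endothelium, were above 0 in old My-HSC libraries only, and Cdh5 peaked at 0.193 FPKM. The part of endothelial RNA in the Jam2 and Jam3 levels was not tested. Among 15 tested tight junction and JAM partner genes none was called, with 12 of 15 higher in My-HSCs (median 0.53) and 8 of 15 higher with age (median 0.34).

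**Figure D3:**
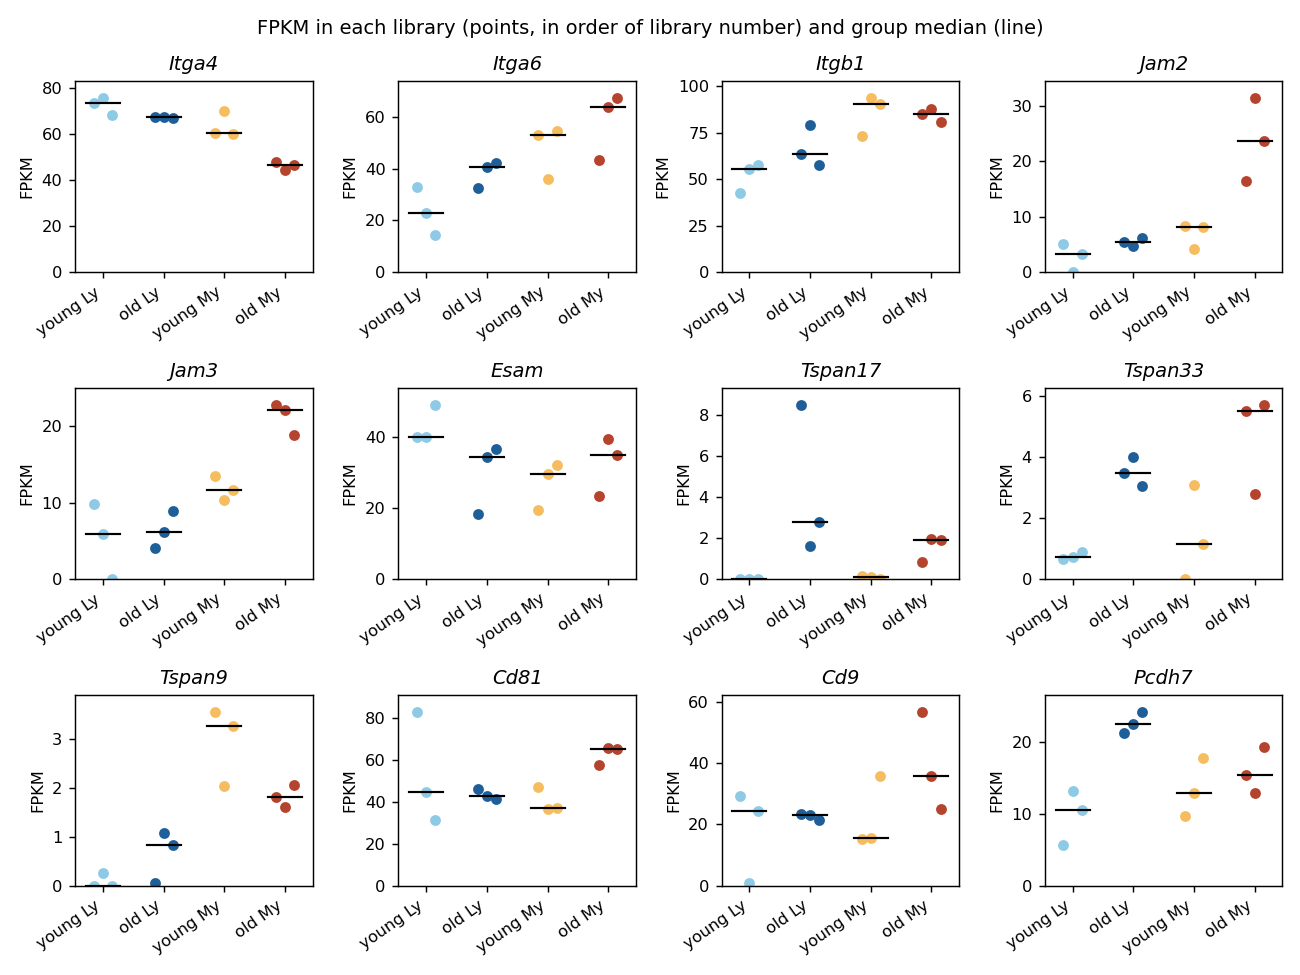
FPKM of 12 members in each library, with 1 panel per gene, points in order of library number within each group and a line at the group median, on axes that start at 0. Old My-HSC points lie lowest for Itga4 and highest for Jam2 and Jam3, Tspan17 is near 0 in all 6 young libraries, and Tspan9 is higher in both My-HSC groups.

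Tetraspanins were the family with the most transcript, at 39.1% to 60.5% of the summed FPKM of the members, and Cd63, Tspan14, Cd81, Tspan32 and Tspan13 together held 62.2% to 80.1% of its summed FPKM (median 67.8%). The call with age fell to a low member. Tspan17, of the TspanC8 group that guides the sheddase ADAM10, was listed at 0, 0 and 0 (young) and stood at 8.48, 1.61 and 2.78 FPKM (old) in Ly-HSCs, and at 0.135, 0.0646 and 0 (young) and 0.806, 1.94 and 1.90 FPKM (old) in My-HSCs. No old library overlapped a young one. Over both subsets it rose with age by 1.70 ± 0.35 on the log2(FPKM + 1) scale, a 3.26-fold difference (95% interval 0.95 to 2.45, adjusted p = 0.0388), which is 1.57 above the median of all genes. Tspan17 reached 1 FPKM in old libraries only and entered the test through them, so the filter had already taken it by the libraries in which it is high. In a mixed population of sorted cells, fewer cells with a transcript and less RNA per cell cannot be told apart.

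The Tspan17 call was a narrow one. Its difference was 2.18 ± 0.49 in Ly-HSCs (adjusted p = 0.0968) and 1.22 ± 0.49 in My-HSCs (adjusted p = 0.573). The highest value, in old Ly-HSC library 1, did not carry the call, since without that library the difference was 1.44 with an adjusted p of 0.0444. In 9 of the 12 fits that leave out 1 library the adjusted p was above 0.05, and over all 12 it ran from 0.0374 to 0.145. The 3 in which the call held were those without young Ly-HSC library 2, old Ly-HSC library 1 or old Ly-HSC library 2. With quantile normalization the difference was 0.92 (adjusted p = 0.313), and with the share of zeros held constant it was 2.22 (adjusted p = 0.188). A fit with the replicate number as a block gave an adjusted p of 0.0723. That block also joins the same numbers across ages, where no correlation by number was seen. The main fit behind the call takes old libraries of the same number as independent.

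Other tetraspanins with age were short of a call. Tspan33, another TspanC8 member, stood at 0.643, 0.708 and 0.876 FPKM in young and 3.45, 3.99 and 3.05 in old Ly-HSCs, and at 0, 3.08 and 1.15 and 5.49, 2.76 and 5.68 in young and old My-HSCs. The ages were apart in Ly-HSCs and overlapped in My-HSCs, and the difference over both subsets was 1.38 ± 0.38 (adjusted p = 0.116). Tspan12 was at 0 in all young Ly-HSC libraries and at 0, 0.109 and 1.27 in old ones, with 0, 0.386 and 0 and 2.23, 0.894 and 1.24 FPKM in young and old My-HSCs. Its difference in My-HSCs was 1.103 ± 0.43 (adjusted p = 0.546). Tspan13, an abundant member, stood at 35.1, 38.2 and 21.6 FPKM in young and 47.9, 43.2 and 45.8 in old Ly-HSCs, and at 43.7, 36.1 and 27.4 and 36.9, 58.1 and 69.2 in My-HSCs, for a difference of 0.57 ± 0.20 (adjusted p = 0.209). In the family 16 of 18 tested genes were higher with age (median 0.55), and 12 of 18 with quantile normalization or with the share of zeros held constant. Tspan12 and Tspan17 are in these counts, and both entered the test through old libraries only.

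Cd53, a tetraspanin of leukocytes, had the next smallest adjusted p in the family. It stood at 0, 6.04 and 0.984 (young) and 42.5, 6.06 and 7.05 FPKM (old) in Ly-HSCs and 0.494, 0.0431 and 1.95 (young) and 24.0, 7.39 and 3.51 FPKM (old) in My-HSCs. The libraries labelled 1 were far above the others in both old groups, and the remaining old Ly-HSC libraries were close to young Ly-HSC library 2. The difference over both subsets was 2.53 ± 0.63 (adjusted p = 0.0920), and 1.77 (adjusted p = 0.307) without the 2 old libraries labelled 1, an alternative chosen after seeing the data. Without young Ly-HSC library 2 it was 2.91 and passed (adjusted p = 0.0366).

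Mmp9, Cxcr2 and Itgam, genes of mature myeloid cells, peaked in the same 2 libraries. Of 12 neutrophil markers 2 had a value, Mmp9 and Cxcr2, and they summed to 100.2 FPKM in old Ly-HSC library 1 and 83.8 in old My-HSC library 1, against at most 6.14 in any other library. Itgam, the alpha chain of Mac-1, stood at 160.0 and 124.5 FPKM there and at 33.0 or less elsewhere. The lineage antibodies included Gr-1, which granulocytes carry, and none against the Itgam protein is listed. Itgal and Itgax were at their highest in old My-HSC library 1. Monocyte and macrophage markers, 8 of 9 with a value, summed to 0.198 to 20.4 (young) and 13.2 to 49.1 FPKM (old) in Ly-HSCs and 18.3 to 46.6 (young) and 11.8 to 40.2 FPKM (old) in My-HSCs, with the highest sums in old Ly-HSC library 1 and young My-HSC library 2. Erythroid markers (6 of 10 with a value) summed to at most 5.96 (young) and 84.1 FPKM (old) in Ly-HSCs and 24.5 (young) and 60.1 FPKM (old) in My-HSCs, and both old maxima lay in the libraries labelled 1, above the at most 24.5 FPKM of all others. T and NK markers (7 of 9) summed to at most 0.491 (young) and 16.2 FPKM (old) in Ly-HSCs and 9.84 (young) and 20.6 FPKM (old) in My-HSCs. B lineage markers (7 of 8) reached 26.1 FPKM and stromal markers (8 of 10) 9.51 FPKM in any library. The part of mature myeloid or erythroid RNA in the Cd53 and Itgal levels was not tested.

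**Figure D4:**
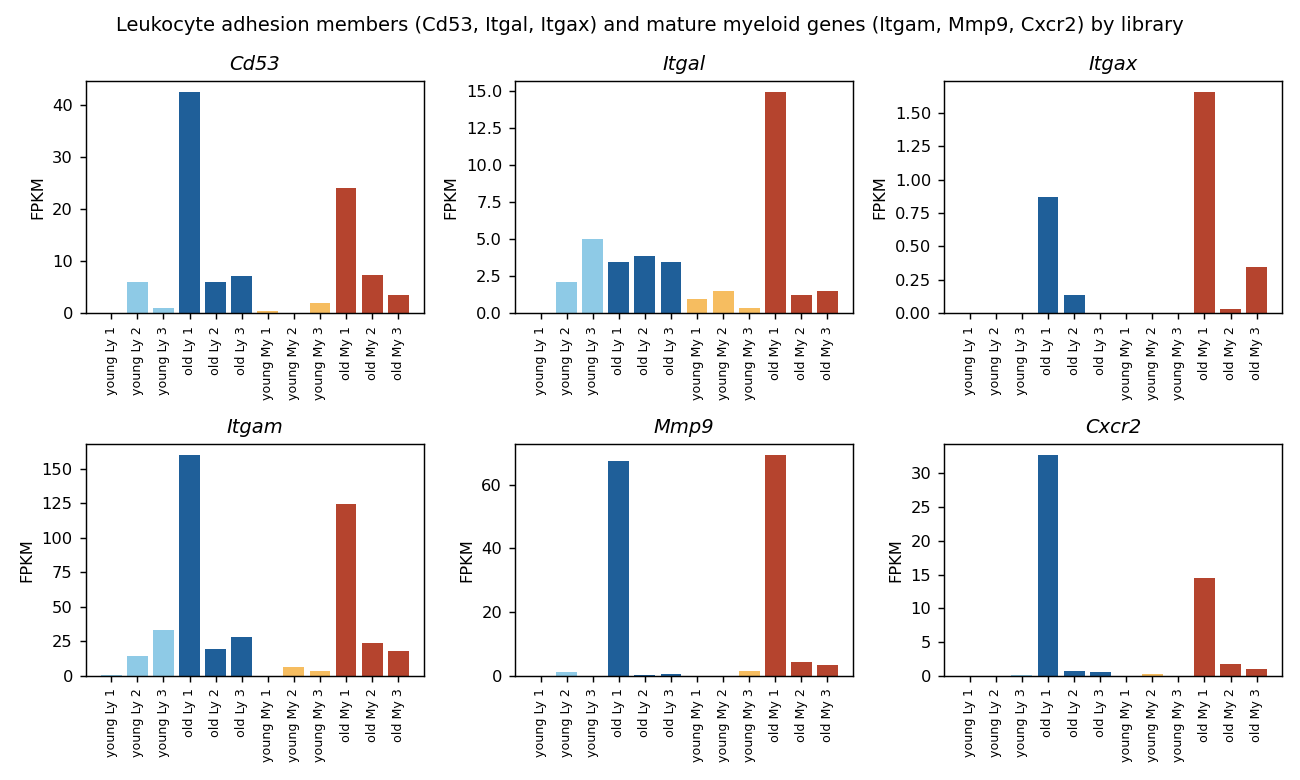
FPKM per library as bars for the leukocyte adhesion members Cd53, Itgal and Itgax and for the mature myeloid genes Itgam, Mmp9 and Cxcr2, coloured by group, on axes that start at 0. Old Ly-HSC library 1 and old My-HSC library 1 stand out for Cd53 (42.5 and 24.0), Itgam, Mmp9 and Cxcr2.

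Between the subsets, Tspan9, a tetraspanin of platelets and megakaryocytes, had the smallest adjusted p of all members. It stood at 0, 0.255 and 0 (young) and 0.0514, 1.08 and 0.827 FPKM (old) in Ly-HSCs and 3.54, 2.03 and 3.25 (young) and 1.81, 1.60 and 2.06 FPKM (old) in My-HSCs, so all 6 My-HSC libraries lay above all 6 Ly-HSC libraries. The log2 difference was 1.34 ± 0.30 over both ages, 2.53-fold (95% interval 0.69 to 1.99, adjusted p = 0.0772, and 0.0260 with no filter on low values), and 1.85 ± 0.42 in young mice (adjusted p = 0.0887). Megakaryocyte and platelet markers (7 of 10 with a value) had sums of 59.5 to 76.0 (young) and 61.2 to 105.0 FPKM (old) in Ly-HSCs and 81.4 to 96.9 (young) and 102.7 to 160.0 FPKM (old) in My-HSCs. These sums did not overlap between subsets in young mice and overlapped in old mice, through old Ly-HSC library 2, and their part in the Tspan9 level was not tested. The markers differed in direction: of 6 tested, 5 were higher and 1 lower in young My-HSCs, and 4 were higher and 2 lower in old ones. Vwf stood at 24.6 to 48.7 FPKM in My-HSCs and 0.143 to 7.66 in Ly-HSCs. Itga2b was lower in old My-HSCs, at 18.55 to 25.7 FPKM against 33.1 to 56.8 in old Ly-HSCs.

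Tspan2 ran the other way, at 3.59, 2.83 and 7.89 (young) and 11.6, 2.84 and 4.02 FPKM (old) in Ly-HSCs and 3.07, 0.547 and 1.79 (young) and 2.93, 0.749 and 1.15 FPKM (old) in My-HSCs, and the log2 difference was -1.20 ± 0.43 (adjusted p = 0.281). Cd37, a leukocyte tetraspanin that the name rule does not take in, was called. Its levels were 47.0, 36.5 and 37.3 and 43.6, 32.7 and 38.7 FPKM in young and old Ly-HSCs against 12.3, 9.98 and 21.5 and 23.7, 8.87 and 9.14 in My-HSCs, and the log2 difference, My-HSC minus Ly-HSC, was -1.496 ± 0.26 (adjusted p = 0.0267), with no overlap. It was 1 of 3 tested tetraspanins named outside the rule (5 listed, 4 with a value). None of the 9 tetraspanin partner genes was called, and 9 of 9 were higher with age (median 0.50) and 6 of 9 in My-HSCs (median 0.42).

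Tspan6 had the second smallest p for a difference of the age effect between subsets. It was listed at 0, 0 and 0 (young) and stood at 6.09, 1.496 and 0.630 FPKM (old) in Ly-HSCs, and at 15.4, 2.00 and 1.70 (young) and 0.0565, 2.24 and 3.96 FPKM (old) in My-HSCs. The My-HSC age effect minus the Ly-HSC one was -2.61 ± 1.11 (adjusted p = 0.864), and 15.4 FPKM in young My-HSC library 1 and 0.0565 FPKM in old My-HSC library 1 were the highest and lowest My-HSC values.

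None of the abundant tetraspanins was called in any comparison. Cd63, a tetraspanin of late endosomes and exosomes, ranged from 36.9 to 169 FPKM, with both extremes in Ly-HSCs, and differed with age by 0.67 ± 0.32 (95% interval -0.02 to 1.37). Cd81, a partner of several receptors and studied for its part in HSC quiescence, stood at 83.1, 44.6 and 31.6 (young) and 46.3, 43.1 and 41.4 FPKM (old) in Ly-HSCs and 47.3, 36.5 and 37.1 (young) and 57.9, 65.8 and 65.2 FPKM (old) in My-HSCs. Its old My-HSC libraries lay above the young ones without overlap, while over both subsets the difference was 0.24 ± 0.20 (95% interval -0.19 to 0.67). Tspan32, a tetraspanin of blood cells, ranged from 30.3 to 66.7 FPKM, with a difference of -0.29 ± 0.19 with age (95% interval -0.70 to 0.12). Tspan14 lay between 19.8 and 72.8 FPKM and differed between subsets by 0.50 ± 0.29 (95% interval -0.12 to 1.13).

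Cd9, an HSC marker in mice, stood at 29.2, 0.733 and 24.4 (young) and 23.5, 23.2 and 21.5 FPKM (old) in Ly-HSCs and 15.1, 15.7 and 35.8 (young) and 56.7, 35.8 and 25.1 FPKM (old) in My-HSCs, and the low value of young Ly-HSC library 2 kept that group wide. Cd82, a marker reported on long-term HSCs, lay between 7.38 and 26.7 FPKM in all libraries. Cd151, a partner of laminin-binding integrins, was listed at 0 in young Ly-HSC library 1 and lay between 4.95 and 14.4 FPKM elsewhere. For these 3 genes the ages overlapped in each subset, and between the old subsets Cd9 was higher and Cd151 lower in My-HSCs without overlap.

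Most cadherins were at or near 0, and Cdh23 and Cdh24 were not. Cdh1 (E-cadherin) was listed at 0 in all 12 libraries, Cdh2 (N-cadherin), once proposed as a tether of HSCs to osteoblasts, peaked at 0.342 FPKM in old Ly-HSC library 2, and Cdh5 peaked at 0.193 FPKM. Of 17 cadherins 12 never reached 1 FPKM and 2 were tested. Cdh23, an atypical cadherin known from hair cells, lay between 0.430 and 4.73 FPKM, and Cdh24 between 0 and 13.1 FPKM. Their differences with age were -0.45 ± 0.37 and -0.91 ± 0.64, and the latter turned to 0.14 without the 4 libraries labelled 1. Cdh22, under the limit, was listed at 0 in 9 libraries and stood at 0.613, 0.379 and 0.887 FPKM in old My-HSCs.

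Cdhr4, a cadherin-related gene, was uneven. It stood at 1.91, 8.61 and 0 (young) and 0, 5.93 and 5.96 FPKM (old) in Ly-HSCs and 24.4, 14.6 and 9.69 (young) and 6.88, 3.42 and 10.2 FPKM (old) in My-HSCs, with a difference between subsets of 2.41 ± 0.87 in young mice (adjusted p = 0.254), where the groups did not overlap. Catenins and other cadherin partners were measured as a list. Ctnnb1, beta-catenin, which also serves Wnt signalling, lay between 42.8 and 95.8 FPKM. Of 11 tested partners (17 listed, 14 with a value) none was called, with 8 higher and 3 lower with age (median 0.18) and the same counts in My-HSCs (median 0.34).

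Protocadherins were the largest family, and 45 of the 55 lie in the alpha, beta and gamma clusters of chromosome 18, in which genes resemble each other closely and the alpha genes, like the gamma genes, share constant exons. These receptors are known from neurons, where they give each cell a surface identity. How reads were split among such genes is not known here, so single values in the cluster are uncertain. The 20 gamma genes were all tested and summed to 91.9 to 141.6 (young) and 82.7 to 120.6 FPKM (old) in Ly-HSCs and 78.9 to 115.6 (young) and 115.9 to 141.1 FPKM (old) in My-HSCs. The alpha genes, 8 in the table and none tested, were listed at 0 in all 6 young libraries and summed to 1.77 to 4.21 FPKM in old Ly-HSCs and 0.826 to 1.36 in old My-HSCs. The 17 beta genes, 5 tested, summed to 3.73 to 5.42 FPKM in young and 7.21 to 16.6 in old Ly-HSCs, and to 1.91 to 3.23 in young and 12.0 to 14.3 in old My-HSCs. Gamma transcript was thus present in all groups, and alpha and beta sums did not overlap between ages in either subset.

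The share of all genes at 0 was lower in old than in young libraries of each subset, as given above, and the alpha and beta genes lie near 0. The part of these zeros in the alpha and beta sums was not tested. Of the 5 tested beta genes, 3 (Pcdhb19, Pcdhb20 and Pcdhb22) entered the test only through old libraries, in which they are high, so their directions with age are not counted. Of the 20 gamma genes 18 were higher with age as deposited (median 0.39), against 8 with the share of zeros held constant (median -0.23) and 11 with quantile normalization (median 0.12). No protocadherin was called with age.

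Among single beta genes, Pcdhb19 stood at 0, 0 and 0 (young) and 1.21, 1.37 and 1.04 FPKM (old) in Ly-HSCs and 0, 0.472 and 0 (young) and 1.26, 0.990 and 1.48 FPKM (old) in My-HSCs. Its old libraries lay above its young ones throughout, with a difference of 1.06 ± 0.26 (adjusted p = 0.0886, and 0.00295 when no filter on low values was applied). Pcdhb22 had the same pattern, at 0, 0 and 0, 1.32, 0.390 and 0.742, 0.131, 0.0343 and 0.132 and 1.16, 1.55 and 0.247 FPKM in the groups in that order, for 0.81 ± 0.28 (adjusted p = 0.207). Both entered the test through old libraries only. Pcdhb16 stood at 0.344, 0.412 and 0.132 FPKM in young and 2.59, 3.26 and 2.87 in old My-HSCs, a difference of 1.60 ± 0.52 (adjusted p = 0.450), and overlapped between ages in Ly-HSCs.

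**Figure D5:**
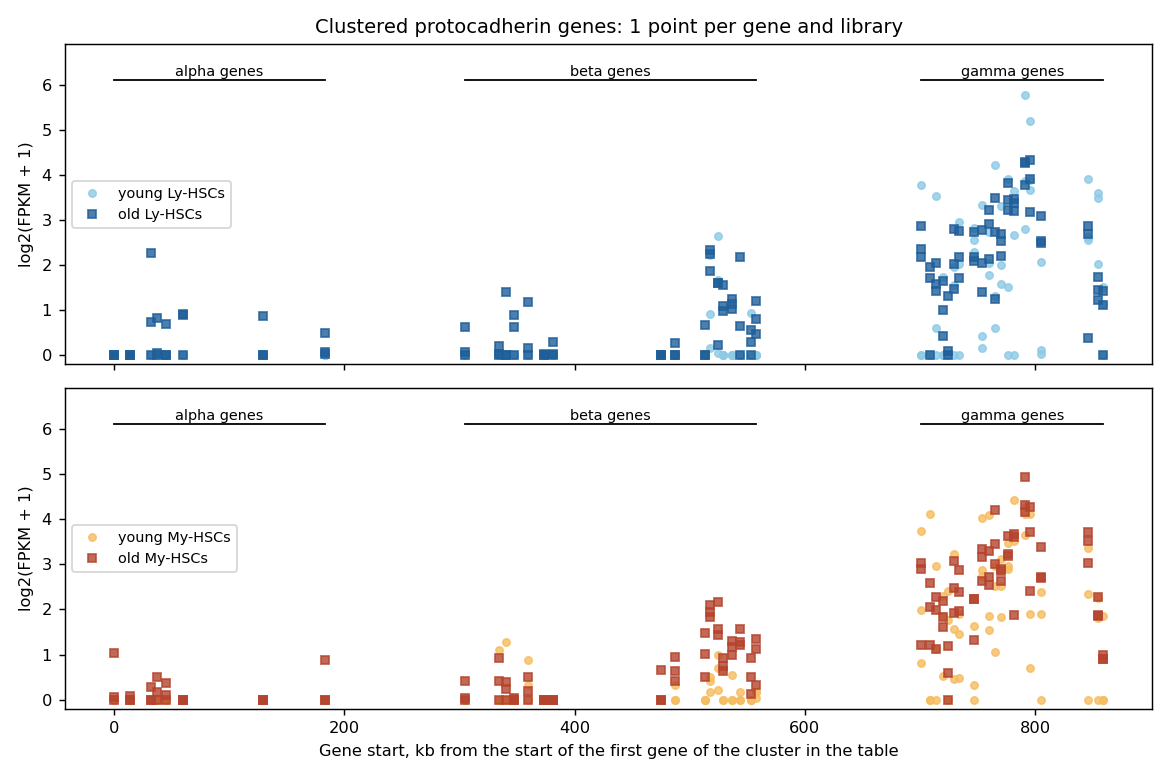
Levels of the 45 clustered protocadherin genes in Ly-HSCs (top) and My-HSCs (bottom), as log2(FPKM + 1) against the start of each gene in kb from the first one in the table, 1 point per gene and library, with circles for young and squares for old. Gamma genes at the right are expressed at both ages, and alpha genes at the left have points above 0 in old libraries only.

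Within the gamma genes, Pcdhga12 stood at 0.0792, 3.22 and 0.0247 (young) and 4.65, 4.83 and 7.53 FPKM (old) in Ly-HSCs and 0, 4.27 and 2.72 (young) and 9.42, 5.53 and 5.55 FPKM (old) in My-HSCs. No old library overlapped a young one, and the difference was 1.74 ± 0.49 (adjusted p = 0.130, and 0.0404 without young Ly-HSC library 2). Pcdhgc4 had the smallest p for a difference of the age effect between subsets, at 10.2, 3.06 and 11.1 FPKM in young and 1.73, 2.34 and 1.35 in old Ly-HSCs and 0, 3.75 and 2.52 and 3.83, 2.67 and 2.64 in young and old My-HSCs. It was lower in old Ly-HSCs without overlap (-1.56 ± 0.63, adjusted p = 0.316), and the difference of the age effects was 2.21 ± 0.89 (adjusted p = 0.864). Pcdhga6 was lower in young My-HSCs, at 0.263, 0 and 2.10 FPKM, than in young Ly-HSCs, at 3.92, 6.05 and 4.93 (-1.91 ± 0.53, adjusted p = 0.147). The highest gamma gene, Pcdhgb7, reached 53.7 FPKM in young Ly-HSC library 1 and lay between 6.00 and 29.6 FPKM elsewhere.

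Of the 10 protocadherins outside the cluster, Pcdh7 was the 1 that was tested. It stood at 5.73, 13.3 and 10.5 (young) and 21.3, 22.5 and 24.3 FPKM (old) in Ly-HSCs and 9.76, 12.9 and 17.8 (young) and 15.4, 12.9 and 19.3 FPKM (old) in My-HSCs. Old Ly-HSC libraries lay within 21.3 to 24.3 FPKM and above every other library. The log2 difference with age was 1.19 ± 0.35 in Ly-HSCs, 2.29-fold (95% interval 0.44 to 1.94, adjusted p = 0.175). The ages overlapped in My-HSCs, and a difference of the age effect between subsets was not called.

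Counts of members whose groups did not overlap can be read against all genes. With age, 12 of 63 were apart in Ly-HSCs (19.0%, beside 16% of all genes) and 18 in My-HSCs (28.6%, beside 19.1%), and 4 with all old libraries on 1 side of all young ones (6.35%, beside 1.58%). Those 4 were Tspan17, Pcdhb19, Pcdhb22 and Pcdhga12, all higher in old libraries, and 3 of them had entered the test through old libraries. In 6 members (9.52%, beside 3.35% of all genes) the ages were apart in the same direction in both subsets. Cd53, Pcdhb19, Pcdhb22, Pcdhga12 and Tspan17 were higher and Itga4 lower in old libraries, and no member was apart in opposite directions. Tspan17, Pcdhb19 and Pcdhb22, which entered the test through old libraries only, are among these 6. The member shares with age thus cannot be set evenly against those of all genes. Between subsets 10 were apart in young mice (15.9%, beside 13.4%), 16 in old mice (25.4%, beside 16.7%), and 4 at both ages in the same direction (6.35%, beside 2.72%), Itga6, Itgb1, Jam3 and Tspan9, each higher in My-HSCs.

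Other adhesion receptors of HSCs outside these families formed a list of 15 genes, 13 of them tested. Selp, P-selectin, was called with age, at 1.08, 7.62 and 11.8 (young) and 25.4, 39.7 and 45.5 FPKM (old) in Ly-HSCs and 2.46, 5.38 and 12.5 (young) and 86.8, 107 and 111 FPKM (old) in My-HSCs, and rose by 3.26 ± 0.43 over both subsets (adjusted p = 0.00313). Cd34, a sialomucin of stem and progenitor cells, was called between the subsets and lower in My-HSCs, with a log2 difference of -1.87 ± 0.26 (adjusted p = 0.00810). The other 11 were not called with age or between subsets.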

How the data were processed

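RNA-seq libraries of sorted Ly-HSCs and My-HSCs from young and old female mice were compared, 12 libraries in 4 groups of 3. Per the labels, the values deposited are FPKM, 1 per gene and library. Tools in the submitters' processing notes are bcl2fastq 2.17, STAR and DESeq2, and the builds are GRCm38 and mm10, with no role given. The annotation and filter of the authors, and how multi-mapped reads were counted, were not given in the sources used here. Read totals are unknown, so no counting interval is given. Genes that most cells use are also listed at 0 in single libraries, so values are printed per library.

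From these values log2(FPKM + 1) was computed, and the 10900 genes with at least 1 FPKM in at least 3 libraries were fitted in limma 3.58.1 (R 4.3.3). One model of 4 group means over 12 libraries was used, with an intensity trend, 8 residual degrees of freedom, two-sided tests and Benjamini-Hochberg adjustment over all genes of a contrast. The model was tested on simulated data. Groups were called apart, or not overlapping, when all libraries of one lay above all of the other. Members named with a test were those called, the 10 with the smallest unadjusted p under 0.05 in each contrast, and the 5 highest of each family. Members known in HSCs and the other genes named without a test were added by value. The members and the gene lists were chosen with earlier results of these data known.

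Deviations of old Ly-HSC and old My-HSC libraries of the same number from their group means correlated at 0.256, 0.233 and 0.210 across genes. Those of unlike number correlated at -0.218 to 0.106. What joins old libraries of the same number was not tested. In young mice the 3 correlations by number were 0.0482, 0.0026 and 0.00233, and between ages none by number exceeded 0.00983. The main model has no term for the correlation by number of the old subsets. Its errors for age over both subsets thus treat such libraries as independent. Coordinates are from GENCODE M21 (GRCm38), which held all 121 members, and promoter windows from RefSeq (GRCm38.p6).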

Additional observations from a re-analysis of the deposited data

How the results depend on the processing

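Counts of members called moved by few genes under most settings. With age in Ly-HSCs, where none was called, 1 member was called with a pseudocount of 0.1 (Tspan17), 1 with no filter on low values (Pcdhb19) and 1 with values rescaled to TPM (Tspan17). With age in My-HSCs 2 were called with no filter (Cdh22 and Pcdhb19). With age over both subsets, where 1 was called, the count was 2 with a pseudocount of 0.1, 4 with no filter, 2 with TPM, and 0 with genes above 0 in all libraries (Tspan17 was then not tested), quantile normalization, 1 weight per group, the replicate block, the share of zeros held constant, or without the 4 libraries numbered 1. In old mice 1 differed between subsets with no filter (Cdh22) and 1 with 1 weight per group (Jam2), and over both ages 1 with no filter (Tspan9). Leaving out each library gave 0 to 2 members with age in Ly-HSCs, 0 to 3 with age over both subsets, 0 to 2 between subsets in young mice and 0 to 2 over both ages. Most of the added calls came without young Ly-HSC library 2 (Itga2 and Pcdhga9 with age in Ly-HSCs, Cd53 and Pcdhga12 over both subsets, Pcdhga7 and Pcdhga9 between young subsets, Pcdhga7 over both ages). The replicate block within each age changed no member's call.

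Directions turned for some members, none of them called. With age over both subsets quantile normalization gave -0.080 for Itgav, -0.44 for Itgb5 and -0.071 for Pcdhgb6. With the share of zeros held constant the values were -0.096 for Itgav, -0.11 for Itgb1, -0.75 for Itgb5, -1.10 for Itgb7, -1.37 for Pcdhga11, -0.021 for Pcdhga9 and -1.80 for Pcdhgb6. Without the 4 libraries numbered 1 they were 0.14 for Cdh24, 0.14 for Cdhr4, -0.062 for Pcdhgb6 and 0.016 for Tspan32, and without the old libraries numbered 1 it was 0.11 for Esam. Between subsets over both ages, quantile normalization gave -0.24 for Cdh23 and -0.17 for Itgb5, the zero share -0.21 for Itgb5 and -0.22 for Pcdhgb6, TPM 0 for Pcdh7, and leaving out the 4 libraries numbered 1 gave -0.053 for Pcdhga9. Leave-one-out ranges that crossed 0 with age were -0.17 to 0.20 (Itgb5), -0.041 to 0.72 (Itgb7), -0.31 to 0.60 (Pcdhgb6), -0.13 to 0.61 (Pcdhgb7), -0.84 to 0.023 (Cdhr4) and -0.041 to 0.25 (Itgav). Between subsets they were -0.14 to 0.32 (Cd63), -0.037 to 0.31 (Cd81), -0.74 to 0.016 (Itgal), -0.042 to 0.33 (Itgb5), -0.59 to 0.17 (Itgb7), -0.18 to 0.088 (Pcdh7) and -0.22 to 0.52 (Pcdhgb7). The cause of these changes was not tested. Depth per library is not known, and the spread of the young Ly-HSC libraries limits what can be seen there.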

Other observations

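Of the 58 members under the limit for testing, 15 reached 1 FPKM in 1 or 2 libraries. Pcdha8, an alpha cluster gene, peaked at 3.79 FPKM, Pcdh20 at 1.90, Cdh15 at 3.08, Cdh17 at 1.40 and Pcdhb15 at 1.77 FPKM. Pcdhb18 was listed at 0 in the 3 young Ly-HSC libraries and at 0.989, 1.93 and 1.13 FPKM in old Ly-HSCs, with 0.594, 0 and 0 FPKM in young and 0.675, 0.552 and 0.895 FPKM in old My-HSCs.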
